A study of Drosophila melanogaster with 15 samples.

Results

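The genes that drive cells through the cell cycle and through mitosis were examined in progenitor cells sorted from the adult Drosophila midgut. The gene group holds 48 fly genes named by their function, 20 of them acting in G1, S phase and DNA replication and 28 in G2, mitosis and cytokinesis, and their FlyBase identifiers were looked up in a deposited table of FPKM values (fragment counts scaled for transcript length and library size) for 17558 genes. Of the 48 genes, 45 were matched to a row of the table, 18 in the first set and 27 in the second. Mcm3, Orc1 and Top2 were not analysed here. The mitotic kinesin gene Klp61F was in the table but its level was too low for the test, which left 44 members among 8209 genes tested. The filter kept genes at 1 FPKM or more in at least 3 of the 15 libraries. The mean in Ctrl was under 1 FPKM for 8 of the 45 members (CycE, dup, aurA, BubR1, Klp61F, ncd, pav and sti), 31 members reached 1 FPKM in every Ctrl library and 21 in every library of the study.

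A cell divides when G1 cyclins and their kinases (Cdks) inactivate the retinoblastoma protein Rbf and free E2F factors to switch on the genes for DNA replication, and when mitotic cyclins with Cdk1, released by the phosphatase String (stg), drive entry into mitosis. The anaphase-promoting complex, with the activators fzy and later fzr, then destroys cyclins so that the chromosomes part, and cytokinesis splits the cell. In the fly midgut the intestinal stem cell is the main dividing cell, its enteroblast daughters leave the cycle when Notch signalling is on, and maturing enterocytes copy their DNA without dividing.

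The 15 libraries form 5 groups of 3, all from flies at adult day 7 and all made from sorted midgut cells carrying green fluorescent protein. By the labels, one group carries RNA interference against ttk, which encodes the zinc-finger repressor Tramtrack (ttk-RNAi). Another overexpresses dpn, which encodes the repressor Deadpan (dpn OE), and another the active intracellular domain of Notch (Nicd OE). A further group is labelled as overexpressing Nicd together with seq, which encodes the zinc-finger protein Sequoia (seq&Nicd OE). The last group is wild type (Ctrl). The labels name neither the line that drives the transgenes nor the one that carries the fluorescent protein, and give no fly or sort for a replicate. The p-values therefore measure the spread between these libraries, which may be technical. RNA from each sort was amplified before sequencing, per the labels' protocols. The libraries are bulk samples, in which fewer cells of a type and less RNA per cell cannot be told apart.

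The read totals recovered from the values were 51100000–56000000 for ttk-RNAi, 25900000–33400000 for dpn OE, 27000000–34100000 for Nicd OE, 24700000–34600000 for seq&Nicd OE and 25100000–38400000 for Ctrl. By the same estimate, 33.7, 34.3 and 48.5% of reads lay in genes in Nicd OE and 44.2, 39.6 and 48.9% in seq&Nicd OE. That share was 62.9–65.6% for ttk-RNAi, 60.8–63.2% for dpn OE and 56.4–62.5% for Ctrl. FPKM summed to 259074–342098 for Nicd OE and 374849–548522 for Ctrl. The part of these shares in the differences below was not tested. The value of ttk itself was at 87.0 to 113 FPKM in the libraries labelled ttk-RNAi, above the 11.1 to 43.6 FPKM of Ctrl. It thus does not show the lower ttk that the label would give. The dpn transcript was at 4.65 to 7.16 FPKM in dpn OE and 1.45 to 2.91 FPKM in Ctrl, but at 268 to 311 FPKM in ttk-RNAi and 167 to 296 FPKM in seq&Nicd OE. N was lower in Nicd OE, at 17.2 to 29.1 FPKM, than in Ctrl, at 41.9 to 76.3 FPKM, and seq was listed at 0 in all 15 libraries. The values of seq and N thus do not show the overexpression that the labels give. Whether a transgene is counted under ttk, seq or N was not tested. Markers of progenitor cells (8 of 9 matched) summed to 381–405 FPKM for ttk-RNAi, 1509–1749 for dpn OE, 336–480.4 for Nicd OE, 289.8–310.4 for seq&Nicd OE and 2466–4268 for Ctrl. That sum was carried by 2 Notch target genes of the E(spl) complex in Ctrl and dpn OE, while klu went the other way in ttk-RNAi, at 116 to 128 FPKM there and 21.8 to 44.7 in Ctrl. The stem cell ligand gene Dl was at 161, 14.8 and 48.4 FPKM in the 3 Ctrl libraries. Markers of hormone-producing enteroendocrine cells (9 of 9 matched) summed to 939–1071 FPKM for ttk-RNAi, 3061–4689 for dpn OE, 3108–4666 for Nicd OE, 4855–7466 for seq&Nicd OE and 12706, 61713 and 35553 for the 3 Ctrl libraries. The hormone gene NPF alone was at 6827, 55989 and 26068 FPKM in Ctrl, whereas CCHa1 was higher in ttk-RNAi (39.2 to 52.1 FPKM) than in Ctrl (12.1 to 16.5), and Dh31 higher in seq&Nicd OE (178 to 377 FPKM) than in Ctrl (8.7 to 55.7). Enterocyte markers (7 of 7) summed to 83.3–114 FPKM for ttk-RNAi, 528–639.7 for dpn OE, 202–304 for Nicd OE, 141–479 for seq&Nicd OE and 154–432 for Ctrl. Myo31DF went against that sum in ttk-RNAi, at 60.2 to 67.8 FPKM there and 13.2 to 40.7 in Ctrl. Visceral muscle markers (6 of 6) stayed at or under 3.84 FPKM in every library. Summed haemocyte markers (4 of 4) were at 11.8–12.7 FPKM for ttk-RNAi and at most 3.77 elsewhere, nearly all from the single gene Sr-CI, and Hml, NimC1 and eater stayed under 0.2 FPKM. Summed tracheal markers (3 of 4) were at 10.9–12.1 FPKM for ttk-RNAi, 0.938–4.48 for seq&Nicd OE and at most 0.614 elsewhere, where verm alone made up 10.1 to 10.9 FPKM in ttk-RNAi. Germline markers (5 of 6) were at 8.65–9.28 FPKM for ttk-RNAi, 4.06–7.57 for seq&Nicd OE and 1.04–2.71 elsewhere, mostly from AGO3 and piwi. These sums, several of them set by 1 or 2 genes, moved with the groups compared below, and their part in the members' differences was not tested.

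All groups were compared in a single limma fit on log2(FPKM + 1), and a gene was called at an adjusted p under 0.05. In the libraries labelled ttk-RNAi, in which ttk itself was high, 17 of the 44 members rose against Ctrl (38.6%) and none fell, where 30.7% of all genes tested rose and 13.7% fell. At an unadjusted p under 0.05 the same limma fit gave 23 members higher and 0 lower. In dpn OE 32 members rose (72.7%) and 3 fell, where 44.6% of all genes rose and 12.5% fell. The members dup, aurA, BubR1 and Ndc80 passed the filter on low values only through the dpn OE libraries, so their rise there is a description with no test. Without such genes, a count made after the data were seen, 28 of 40 members rose in dpn OE (70%), where 42.7% of all genes did. In Nicd OE 24 members fell (54.5%) and none rose, where 34.2% of all genes fell and 5.07% rose, and the unadjusted limma counts were 28 lower and 0 higher. In seq&Nicd OE 8 members rose and 2 fell against Ctrl, where 13.3% of all genes rose and 21.2% fell. Against Nicd OE, seq&Nicd OE had 23 members higher (52.3%) and 0 lower, where 15.8% of all genes were higher and 3.85% lower, with unadjusted limma counts of 35 higher and 0 lower. From the data and not from the labels, these 2 groups were treated as paired by replicate number. With the number as a block in a limma fit of these 2 groups alone 36 members were higher, a fit chosen after the data were seen. The pairing was read from these same libraries, so the added calls are a description. The block in the fit of all 15 libraries gave 23. The 13 members that gained a call in the paired fit were Cdk4, dap, E2f2, Rbf, BubR1, Bub3, Ndc80, Nuf2, SMC2, barr, tum, sti and scra (limma adjusted p = 0.0083 to 0.046). The gene aurA also needed the seq&Nicd OE libraries to pass the filter. Its rises in seq&Nicd OE, counted among the 8, the 23 and the 36, are thus a description.

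The median log2 difference of all genes was not 0 in these comparisons. Against Ctrl it was 0.24 in ttk-RNAi, 0.50 in dpn OE, −0.40 in Nicd OE and −0.17 for seq&Nicd OE, and it was 0.22 in seq&Nicd OE against Nicd OE. The median of the 44 members was 0.62 in ttk-RNAi, 1.08 in dpn OE and −0.80 in Nicd OE. It was 0.14 in seq&Nicd OE against Ctrl and 0.94 against Nicd OE. Below, the excess of a gene is its log2 difference minus the median of all genes in that comparison, given with the standard error of the log2 difference. The adjusted p printed beside an excess is from the limma test of the log2 difference against 0. The excess itself was not tested, so a call does not show a change beyond that of all genes. Folds are ratios of group means in FPKM, while the log2(FPKM + 1) scale understates the change of low genes. With the libraries scaled to a common median, 15 members rose and 1 fell in ttk-RNAi, 21 rose and 4 fell in dpn OE, 2 rose and 19 fell in Nicd OE, and 12 rose and 3 fell in seq&Nicd OE against Ctrl. The 2 members higher in Nicd OE under that scaling were the checkpoint kinase genes Bub1 and Mps1. The 3 lower in seq&Nicd OE were Dp, Incenp and barr, the one lower in ttk-RNAi was barr, and CycD joined E2f1, stg and fzr in dpn OE. With the libraries scaled to equal FPKM sums, 11 members fell in Nicd OE and 1, Mps1, rose.

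**Figure D1:**
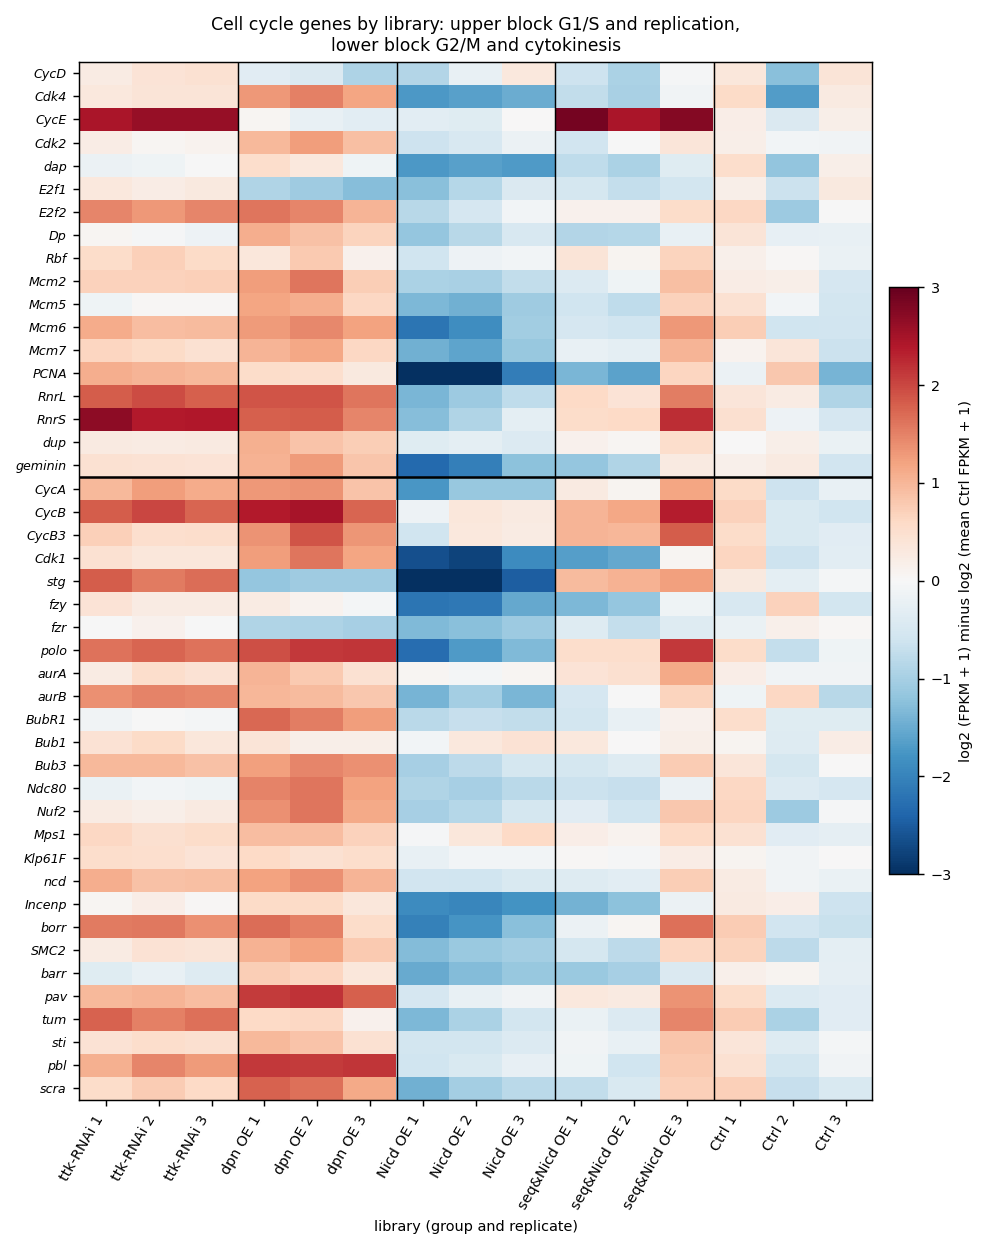
Level of each member in each of the 15 libraries, as log2(FPKM + 1) minus log2 of the member's mean Ctrl FPKM + 1. Members are in rows by role and libraries in columns by group. Colours end at 3 and −3, and values past the ends take the end colour. Most rows are high in ttk-RNAi and dpn OE and low in Nicd OE, with seq&Nicd OE replicate 3 above replicates 1 and 2.

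Set against the mean of Ctrl, the median ratio of the 18 G1 and S phase genes was 1.63, 1.63 and 1.53 in the 3 ttk-RNAi libraries and 2.48, 2.65 and 1.80 in dpn OE. For the same genes it was 0.248, 0.361 and 0.458 in Nicd OE and 0.636, 0.690 and 1.64 in seq&Nicd OE, against 1.32, 0.907 and 0.769 in Ctrl. For the 27 genes of G2, mitosis and cytokinesis the median ratio was 2.03, 2.10 and 1.98 in ttk-RNAi and 2.99, 3.22 and 2.35 in dpn OE. These genes had a median ratio of 0.204, 0.314 and 0.380 in Nicd OE and 0.808, 0.693 and 1.93 in seq&Nicd OE, against 1.69, 0.604 and 0.747 in Ctrl. Both sets had the same order of groups at the ends, with dpn OE and ttk-RNAi above Ctrl and Nicd OE below it, and seq&Nicd OE overlapped Ctrl in both. The mean was highest in dpn OE for 30 of the 45 members, in ttk-RNAi for 14 and in seq&Nicd OE for 1. It was lowest in Nicd OE for 38 members, in Ctrl for 5 and in dpn OE for 2.

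**Figure D2:**
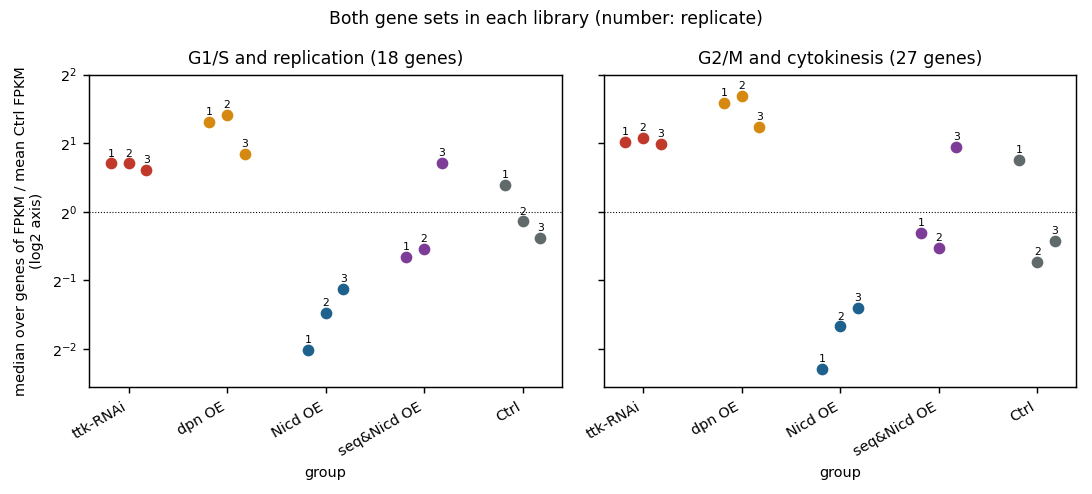
Median ratio to the mean of Ctrl over the genes of each set, on a log axis, with 1 point a library and groups along the x axis. The dpn OE and ttk-RNAi points lie above those of Nicd OE in both sets, and in seq&Nicd OE replicate 3, at 1.64 and 1.93, stands above the other libraries of its group.

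Of the G1 cyclins, their kinases and the inhibitor dap, CycE stood apart. CycE (FBgn0010382, BDGP6 2L:15727581-15748150) encodes the cyclin that with Cdk2 starts S phase. CycE was at 8.02, 9.16 and 9.18 FPKM in the libraries labelled ttk-RNAi and at 0.711, 0.415 and 0.338 in dpn OE. CycE stood at 0.319, 0.287 and 0.657 FPKM in Nicd OE and at 11, 7.98 and 10.2 in seq&Nicd OE, against 0.883, 0.221 and 0.855 in Ctrl. The 6 libraries of ttk-RNAi and seq&Nicd OE lay at 7.98 FPKM or more, and the other 9 libraries were all under 1 FPKM. CycE was 13.5-fold higher (excess 2.35 ± 0.20, adjusted p = 3.6e-08) in ttk-RNAi and 14.9-fold higher (excess 2.88 ± 0.20, adjusted p = 6.8e-08) in seq&Nicd OE than in Ctrl. Against Nicd OE, seq&Nicd OE was 23.1-fold higher (excess 2.70 ± 0.20, adjusted p = 2.9e-08). CycE was not called in dpn OE (adjusted p = 0.59) or in Nicd OE (adjusted p = 0.45).

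The kinase partner of CycD, Cdk4, and the CycE/Cdk2 inhibitor dacapo (dap) had another order of groups. Cdk4 was at 10.9, 11.5 and 11.5 FPKM in the libraries labelled ttk-RNAi and at 22.3, 26 and 20.5 in dpn OE. Cdk4 stood at 1.86, 2.08 and 2.37 FPKM in Nicd OE and at 4.67, 3.82 and 7.82 in seq&Nicd OE, against 13.1, 1.96 and 10.4 in Ctrl. Cdk4 was 2.7-fold higher (excess 1.10 ± 0.42, adjusted p = 0.0044) in dpn OE than in Ctrl, with no overlap. In Nicd OE it was 4.04-fold lower (excess −0.94 ± 0.42, adjusted p = 0.021), with Ctrl replicate 2 inside the range of Nicd OE. The Cdk4 call in Nicd OE was lost without Nicd OE replicate 1, Nicd OE replicate 2, Ctrl replicate 1 or Ctrl replicate 3 (adjusted p = 0.057 to 0.1). dap was at 10.3, 10.7 and 11.7 FPKM in the libraries labelled ttk-RNAi and at 17.4, 14.9 and 10.7 in dpn OE. dap stood at 2.9, 3.17 and 2.97 FPKM in Nicd OE and at 6.55, 5.59 and 8.88 in seq&Nicd OE, against 17.4, 4.59 and 13.4 in Ctrl. All Nicd OE libraries lay below all Ctrl libraries for dap, which was 3.91-fold lower (excess −1.11 ± 0.34, adjusted p = 0.0031), a call that held with each library left out and was lost with equal FPKM sums (adjusted p = 0.074). CycD was called in none of the 5 comparisons. Cdk2, 43.9% of whose exon length is shared with the gene CG17267, was 2.99-fold higher (excess 0.55 ± 0.21, adjusted p = 0.00056) in dpn OE, and reads of the 2 genes may not be separated.

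Among the E2F factors and Rbf, the activator gene E2f1 and the repressor gene E2f2 differed in their order. E2f1 was at 50.9, 47.6 and 49.9 FPKM in the libraries labelled ttk-RNAi and at 21.3, 18.9 and 16 in dpn OE. E2f1 stood at 16.4, 21.8 and 29.9 FPKM in Nicd OE and at 27.7, 24.1 and 27.4 in seq&Nicd OE, against 45.9, 25.3 and 50.2 in Ctrl. E2f1 (FBgn0011766, BDGP6 3R:21620304-21660871) was 2.16-fold lower (excess −1.53 ± 0.26, adjusted p = 0.0041) in dpn OE, where all 3 libraries lay under the lowest Ctrl library. It was 1.78-fold lower (excess −0.39 ± 0.26, adjusted p = 0.028) in Nicd OE, where the groups overlapped and the call was lost without Nicd OE replicate 1, Nicd OE replicate 2, Ctrl replicate 1 or Ctrl replicate 3 (adjusted p = 0.075 to 0.13). E2f1 showed no call in ttk-RNAi (adjusted p = 0.31), whose libraries reached the level of the 2 higher Ctrl libraries.

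E2f2 was at 12.9, 11.3 and 12.8 FPKM in the libraries labelled ttk-RNAi and at 14.3, 12.8 and 9.21 in dpn OE. E2f2 stood at 1.79, 2.52 and 3.75 FPKM in Nicd OE and at 4.5, 4.43 and 6.3 in seq&Nicd OE, against 6.67, 1.35 and 3.99 in Ctrl. The 6 libraries of ttk-RNAi and dpn OE lay above all Ctrl libraries for E2f2, which was 3.08-fold higher (excess 1.33 ± 0.34, adjusted p = 0.0015) in ttk-RNAi and 3.02-fold higher (excess 1.02 ± 0.34, adjusted p = 0.0015) in dpn OE. An exon share of 19.9% with Mpp6 leaves some of its reads uncertain. Dp was at 13, 12.1 and 11.1 FPKM in the libraries labelled ttk-RNAi and at 27.5, 23.6 and 20.04 in dpn OE. Dp stood at 4.95, 6.48 and 8.51 FPKM in Nicd OE and at 6.27, 6.39 and 10.4 in seq&Nicd OE, against 16.3, 10.3 and 10.4 in Ctrl. Dp, the partner that E2F proteins need to bind DNA, was 1.92-fold higher (excess 0.41 ± 0.25, adjusted p = 0.0065) in dpn OE with no overlap. It was 1.85-fold lower (excess −0.40 ± 0.25, adjusted p = 0.021) in Nicd OE, also with no overlap, and that call was lost without Nicd OE replicate 1, Nicd OE replicate 2 or Ctrl replicate 1 (adjusted p = 0.06 to 0.099). Rbf was 1.62-fold higher (excess 0.38 ± 0.23, adjusted p = 0.037) in ttk-RNAi, a call lost without ttk-RNAi replicate 1, ttk-RNAi replicate 2, ttk-RNAi replicate 3 or Ctrl replicate 3 (adjusted p = 0.078 to 0.11).

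The replication genes included the subunits of ribonucleotide reductase, RnrL and RnrS, which make the deoxynucleotides for DNA synthesis. RnrL was at 17.7, 19.6 and 17.4 FPKM in the libraries labelled ttk-RNAi and at 18.5, 18.6 and 15 in dpn OE. RnrL stood at 1.04, 1.5 and 2.12 FPKM in Nicd OE and at 7.06, 5.99 and 14.3 in seq&Nicd OE, against 5.82, 5.23 and 1.84 in Ctrl. RnrL was 4.24-fold higher (excess 1.72 ± 0.33, adjusted p = 0.00019) in ttk-RNAi and 4.04-fold higher (excess 1.38 ± 0.33, adjusted p = 0.00025) in dpn OE, and both groups lay above all Ctrl libraries. In Nicd OE it was 2.77-fold lower (excess −0.58 ± 0.33, adjusted p = 0.03), with overlap, a call lost without Nicd OE replicate 1, Nicd OE replicate 2, Ctrl replicate 1 or Ctrl replicate 2 (adjusted p = 0.073 to 0.12). RnrL was 2.12-fold higher (excess 1.11 ± 0.33, adjusted p = 0.037) in seq&Nicd OE than in Ctrl, a call lost without seq&Nicd OE replicate 1, seq&Nicd OE replicate 3 or Ctrl replicate 3 (adjusted p = 0.053 to 0.19), and 5.88-fold higher (excess 1.71 ± 0.33, adjusted p = 0.00044) than in Nicd OE.

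RnrS was at 141, 116 and 116 FPKM in the libraries labelled ttk-RNAi and at 76.2, 77.2 and 60.3 in dpn OE. RnrS stood at 8.14, 10.9 and 17.2 FPKM in Nicd OE and at 31.6, 32.4 and 102 in seq&Nicd OE, against 29.8, 19.2 and 14.8 in Ctrl. RnrS was 5.85-fold higher (excess 2.31 ± 0.39, adjusted p = 7.7e-05) in ttk-RNAi and 3.35-fold higher (excess 1.24 ± 0.39, adjusted p = 0.0015) in dpn OE than in Ctrl, and no library of either group overlapped Ctrl. It was 2.6-fold higher (excess 1.34 ± 0.39, adjusted p = 0.03) in seq&Nicd OE than in Ctrl, with replicate 3 far above the other 2 libraries. Without seq&Nicd OE replicate 3 the ratio was 1.51-fold, and the call was lost without seq&Nicd OE replicate 3, Ctrl replicate 2 or Ctrl replicate 3 (adjusted p = 0.052 to 0.13). Against Nicd OE it was 4.58-fold higher (excess 1.72 ± 0.39, adjusted p = 0.0018), or 2.65-fold without that library. RnrS was not called in Nicd OE (adjusted p = 0.13).

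PCNA encodes the sliding clamp that holds DNA polymerase on its template. PCNA was at 57.3, 55.3 and 53 FPKM in the libraries labelled ttk-RNAi and at 39.4, 38.4 and 33 in dpn OE. PCNA stood at 1.64, 2.25 and 5.54 FPKM in Nicd OE and at 9.64, 8.03 and 42.4 in seq&Nicd OE, against 23.4, 46.9 and 9.42 in Ctrl. All Nicd OE libraries lay below the 9.42 to 46.9 FPKM that Ctrl spanned for PCNA. PCNA was 8.45-fold lower (excess −2.19 ± 0.56, adjusted p = 0.0023) in Nicd OE than in Ctrl, at 5.22-fold without Ctrl replicate 2 and 13.6-fold without Nicd OE replicate 3. It was 6.37-fold higher (excess 1.86 ± 0.56, adjusted p = 0.014) in seq&Nicd OE than in Nicd OE, at 2.81-fold without seq&Nicd OE replicate 3 and 10.3-fold without Nicd OE replicate 3, and that call was lost without Nicd OE replicate 1, Nicd OE replicate 2 or seq&Nicd OE replicate 3 (adjusted p = 0.055 to 0.083). PCNA was called in neither ttk-RNAi (adjusted p = 0.072) nor dpn OE (adjusted p = 0.28), although all ttk-RNAi libraries lay above all Ctrl libraries.

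The gene geminin encodes the inhibitor of the licensing factor Cdt1, the product of dup. geminin was at 42.3, 41 and 40.3 FPKM in the libraries labelled ttk-RNAi and at 63.3, 74.9 and 55.2 in dpn OE. geminin stood at 5.23, 6.57 and 12.3 FPKM in Nicd OE and at 13, 15.7 and 36.6 in seq&Nicd OE, against 33.9, 37 and 20.2 in Ctrl. It was 2.13-fold higher (excess 0.59 ± 0.36, adjusted p = 0.016) in dpn OE and 3.77-fold lower (excess −1.43 ± 0.36, adjusted p = 0.0012) in Nicd OE, with no overlap in either, and the first of these calls was lost without dpn OE replicate 2 or Ctrl replicate 3 (adjusted p = 0.061 to 0.079). Against Nicd OE, geminin was 2.71-fold higher (excess 1.05 ± 0.36, adjusted p = 0.018) in seq&Nicd OE, at 1.79-fold without seq&Nicd OE replicate 3, and that call was lost without Nicd OE replicate 1, Nicd OE replicate 2 or seq&Nicd OE replicate 3 (adjusted p = 0.074 to 0.11). Mcm6 was at 19.9, 17.3 and 17.7 FPKM in the libraries labelled ttk-RNAi and at 22.5, 25.3 and 21.4 in dpn OE. Mcm6 stood at 1.14, 1.69 and 3.68 FPKM in Nicd OE and at 5.82, 5.38 and 23.1 in seq&Nicd OE, against 15.3, 5.38 and 5.51 in Ctrl. Mcm6, a subunit of the replicative helicase, was 4.01-fold lower (excess −1.15 ± 0.46, adjusted p = 0.015) in Nicd OE. That ratio was 2.51-fold without Ctrl replicate 1 and 6.16-fold without Nicd OE replicate 3, and the call was lost without Nicd OE replicate 1, Nicd OE replicate 2 or Ctrl replicate 1 (adjusted p = 0.053 to 0.076).

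As a list, the 9 replication genes were higher in seq&Nicd OE than in Nicd OE in 9 of 9 cases, where 15.8% of all genes were. Against Ctrl, 8 of 9 rose in dpn OE (7 of 8 without dup, all genes 42.7%) and 7 of 9 fell in Nicd OE (77.8%, all genes 34.2%). In ttk-RNAi 2 of 9 rose (22.2%), fewer than the 30.7% of all genes, and 2 of 9 rose in seq&Nicd OE (all genes 13.3%). The helicase genes Mcm2, Mcm5 and Mcm7 were called in the same comparisons as Mcm6 and geminin. Of these genes, only Mcm2 in dpn OE, Mcm5 and Mcm7 in Nicd OE, and Mcm7 against Nicd OE held under 4 other scalings and each leave-out. Without seq&Nicd OE replicate 3 the ratio to Nicd OE went from 5.73 to 3.16 for Mcm2. It went from 7.12 to 3.39 for Mcm5 and from 7.09 to 4.24 for Mcm7. Mcm2 averaged 4.81 ± 1.69 FPKM in dpn OE and 0.331 ± 0.117 in Nicd OE, against 1.45 ± 0.625 in Ctrl (SD, n = 3 each). Mcm5 averaged 5.13 ± 1.22 FPKM in dpn OE and 0.278 ± 0.179 in Nicd OE, against 2.11 ± 1.08 in Ctrl. Mcm7 averaged 6.9 ± 1.5 FPKM in dpn OE and 0.57 ± 0.252 in Nicd OE, against 3.08 ± 1.36 in Ctrl. Mcm7 shares 81.7% of its exon length with the RNA gene asRNA:CR45871 on the annotation, so its values are uncertain. The gene dup averaged 1.63 ± 0.311 FPKM in dpn OE and 0.411 ± 0.174 in Ctrl, and passed the filter on low values only through dpn OE.

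Mitotic entry was represented by 10 genes, of which stg changed in all 5 comparisons. The Cdc25 phosphatase String, product of stg (FBgn0003525, BDGP6 3R:29251826-29255800), removes the inhibitory phosphates from Cdk1. stg was at 97.2, 80.6 and 87.9 FPKM in the libraries labelled ttk-RNAi and at 11.4, 12.3 and 12.2 in dpn OE. stg stood at 1.59, 2.21 and 4.04 FPKM in Nicd OE and at 52.6, 56.6 and 64.8 in seq&Nicd OE, against 33.1, 21.7 and 25.7 in Ctrl. The 5 groups did not overlap at all for stg, with ttk-RNAi highest, then seq&Nicd OE, Ctrl, dpn OE and Nicd OE. Against Ctrl, stg was 3.3-fold higher (excess 1.46 ± 0.24, adjusted p = 3.6e-05) in ttk-RNAi and 2.16-fold higher (excess 1.26 ± 0.24, adjusted p = 0.0025) in seq&Nicd OE, and it was 2.25-fold lower (excess −1.59 ± 0.24, adjusted p = 0.0015) in dpn OE and 10.3-fold lower (excess −2.59 ± 0.24, adjusted p = 7.6e-07) in Nicd OE. Between seq&Nicd OE and Nicd OE it was 22.2-fold higher (excess 3.86 ± 0.24, adjusted p = 5.2e-09).

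Polo kinase, product of polo (FBgn0003124, BDGP6 3L:20309654-20313466), acts at mitotic entry, on the spindle and in cytokinesis. polo was at 26.7, 29 and 26.8 FPKM in the libraries labelled ttk-RNAi and at 33.2, 37.6 and 38.5 in dpn OE. polo stood at 0.818, 1.75 and 2.56 FPKM in Nicd OE and at 11.9, 11.9 and 37.8 in seq&Nicd OE, against 12.2, 4.42 and 7.19 in Ctrl. It was 3.47-fold higher (excess 1.53 ± 0.40, adjusted p = 0.002) in ttk-RNAi, 4.6-fold higher (excess 1.66 ± 0.40, adjusted p = 0.00035) in dpn OE and 4.63-fold lower (excess −1.28 ± 0.40, adjusted p = 0.0041) in Nicd OE, with no overlap with Ctrl in any of these. It was 2.59-fold higher (excess 1.32 ± 0.40, adjusted p = 0.034) in seq&Nicd OE than in Ctrl, but 2 of its libraries lay just under Ctrl replicate 1. Without seq&Nicd OE replicate 3 that ratio was 1.5-fold, and the call was lost without seq&Nicd OE replicate 3, Ctrl replicate 2 or Ctrl replicate 3 (adjusted p = 0.073 to 0.15). Against Nicd OE it was 12-fold higher (excess 2.62 ± 0.40, adjusted p = 5.8e-05), or 6.96-fold without that library.

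CycB, CycB3 and CycA encode the mitotic cyclins. CycB was at 9.32, 10.8 and 8.9 FPKM in the libraries labelled ttk-RNAi and at 14.2, 15.1 and 8.86 in dpn OE. CycB stood at 1.65, 2.73 and 2.52 FPKM in Nicd OE and at 4.96, 5.55 and 13.9 in seq&Nicd OE, against 3.7, 1.15 and 0.94 in Ctrl. Ctrl replicate 1 held the highest CycB of its group, and without it the ratio to Ctrl was 9.24-fold in ttk-RNAi, 12.2-fold in dpn OE and 7.78-fold in seq&Nicd OE. With all libraries CycB was 5.01-fold higher (excess 1.74 ± 0.36, adjusted p = 0.0004) in ttk-RNAi, 6.6-fold higher (excess 1.81 ± 0.36, adjusted p = 0.00011) in dpn OE and 4.22-fold higher (excess 1.80 ± 0.36, adjusted p = 0.0028) in seq&Nicd OE, with no overlap with Ctrl. Without seq&Nicd OE replicate 3 it was 2.73-fold higher in seq&Nicd OE than in Ctrl. All Nicd OE libraries lay within the range of Ctrl, with no call (adjusted p = 0.58).

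CycB3 was at 3.13, 2.56 and 2.68 FPKM in the libraries labelled ttk-RNAi and at 5.45, 8.3 and 5.34 in dpn OE. CycB3 stood at 0.671, 2.14 and 2.0 FPKM in Nicd OE and at 4.15, 4.04 and 7.87 in seq&Nicd OE, against 2.74, 0.842 and 1.02 in Ctrl. CycB3 was 4.15-fold higher (excess 1.09 ± 0.31, adjusted p = 0.00059) in dpn OE and 3.49-fold higher (excess 1.52 ± 0.31, adjusted p = 0.0036) in seq&Nicd OE than in Ctrl, with no overlap in either, at 6.85-fold and 5.76-fold without Ctrl replicate 1. CycA was at 16.1, 19.8 and 17.8 FPKM in the libraries labelled ttk-RNAi and at 20.2, 20.9 and 14.6 in dpn OE. CycA stood at 1.6, 2.92 and 2.92 FPKM in Nicd OE and at 9.47, 8.12 and 18.6 in seq&Nicd OE, against 11.9, 4.63 and 6.43 in Ctrl. CycA was 2.33-fold higher (excess 0.97 ± 0.33, adjusted p = 0.0071) in ttk-RNAi and 2.42-fold higher (excess 0.74 ± 0.33, adjusted p = 0.0044) in dpn OE, and 3.09-fold lower (excess −0.86 ± 0.33, adjusted p = 0.0074) in Nicd OE. Against Nicd OE, seq&Nicd OE was 4.87-fold higher (excess 1.64 ± 0.33, adjusted p = 0.00053).

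Cdk1, fzy and fzr are the kinase of mitosis and the 2 activators of the anaphase-promoting complex. Cdk1 was at 18.4, 16.7 and 16.7 FPKM in the libraries labelled ttk-RNAi and at 32.2, 41.8 and 30.6 in dpn OE. Cdk1 stood at 1.26, 1.03 and 2.77 FPKM in Nicd OE and at 3.45, 3.82 and 13.6 in seq&Nicd OE, against 20.7, 8.05 and 10.2 in Ctrl. Cdk1 was 7.71-fold lower (excess −1.94 ± 0.41, adjusted p = 0.00053) in Nicd OE and 2.68-fold higher (excess 0.94 ± 0.41, adjusted p = 0.0072) in dpn OE, with no overlap with Ctrl. The Cdk1 call in dpn OE did not hold under all 4 other scalings. fzy was at 12.3, 10.7 and 10.9 FPKM in the libraries labelled ttk-RNAi and at 10.8, 9.76 and 8.62 in dpn OE. fzy stood at 1.2, 1.24 and 2.43 FPKM in Nicd OE and at 2.94, 3.49 and 8.15 in seq&Nicd OE, against 6.13, 15 and 5.79 in Ctrl. For fzy (Cdc20) the Nicd OE libraries lay below all others, and the gene was 5.53-fold lower (excess −1.44 ± 0.34, adjusted p = 0.00084) in Nicd OE, or 3.67-fold without Ctrl replicate 2.

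fzr was at 33.7, 37.1 and 33.8 FPKM in the libraries labelled ttk-RNAi and at 17.7, 17.3 and 16.4 in dpn OE. fzr stood at 12.8, 13.5 and 15.3 FPKM in Nicd OE and at 25.7, 20.3 and 25.8 in seq&Nicd OE, against 29.2, 37.4 and 34.8 in Ctrl. The Cdh1-type activator fzr (FBgn0262699, BDGP6 X:4667290-4679537), which keeps mitotic cyclins low in G1 and in cells that copy DNA without dividing, was 1.97-fold lower (excess −1.44 ± 0.19, adjusted p = 0.00064) in dpn OE and 2.44-fold lower (excess −0.83 ± 0.19, adjusted p = 0.00017) in Nicd OE. No library of these groups reached the lowest Ctrl library, and the ttk-RNAi libraries lay within the range of Ctrl, with no call (adjusted p = 0.85). Against Nicd OE, seq&Nicd OE was 1.73-fold higher (excess 0.53 ± 0.19, adjusted p = 0.0089), a call that was lost with the libraries scaled to a common median (adjusted p = 0.27).

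All 10 mitotic entry genes were higher in seq&Nicd OE than in Nicd OE (all genes 15.8%), and 5 of the 10 were higher in seq&Nicd OE than in Ctrl (all genes 13.3%). In ttk-RNAi 5 of 10 rose (all genes 30.7%) and in Nicd OE 7 fell (all genes 34.2%). In dpn OE 7 rose and 2 fell, or 6 rose of 9 without aurA, where 42.7% of all genes rose. Of the Aurora kinase genes, aurB was 3.3-fold higher (excess 1.32 ± 0.32, adjusted p = 0.00096) in ttk-RNAi, 2.18-fold higher (excess 0.52 ± 0.32, adjusted p = 0.012) in dpn OE and 4.59-fold lower (excess −0.75 ± 0.32, adjusted p = 0.011) in Nicd OE, at 5.12-fold, 3.39-fold and 2.96-fold without Ctrl replicate 2, and its rise in dpn OE was lost without Ctrl replicate 3 (adjusted p = 0.077). The spindle pole kinase gene aurA averaged 1.1 ± 0.405 FPKM in dpn OE, 0.99 ± 0.588 in seq&Nicd OE and 0.22 ± 0.153 in Ctrl (SD, n = 3 each). It passed the filter only with both dpn OE and seq&Nicd OE libraries. Its rises in these groups, counted among the 7, the 5 and the 10 against Nicd OE, are therefore a description.

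**Figure D3:**
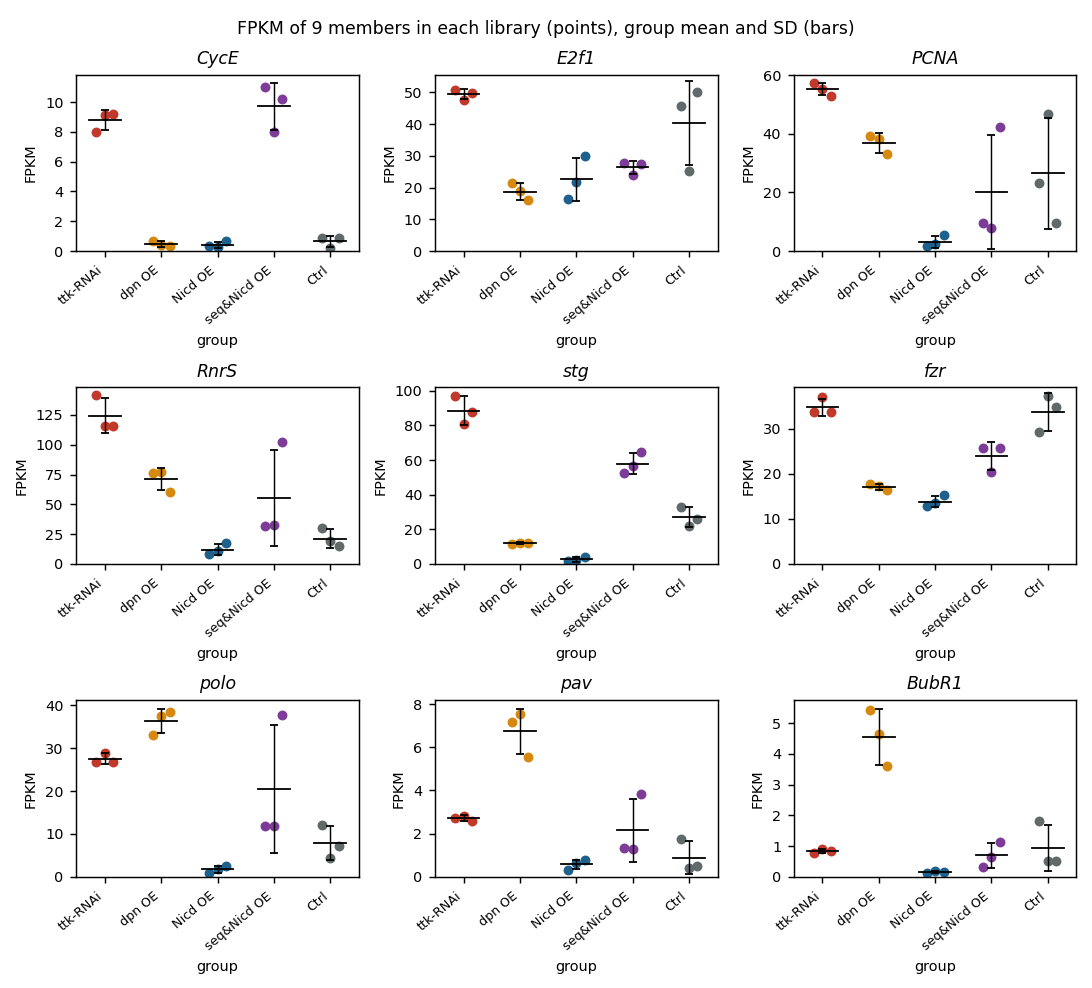
FPKM of CycE, E2f1, PCNA, RnrS, stg, fzr, polo, pav and BubR1 in every library, with 1 point a library and groups along the x axis. CycE and stg are high in both ttk-RNAi and seq&Nicd OE, while E2f1, stg and fzr lie below Ctrl in dpn OE and polo, pav and BubR1 above it.

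Of the 6 spindle checkpoint and kinetochore genes, BubR1 and Ndc80 were tested only because they were high in dpn OE, and 3 of the other 4 rose there (75%, all genes 42.7%). BubR1, whose product delays anaphase until chromosomes are attached, and Ndc80, whose product binds microtubules at the kinetochore, were low in most libraries. BubR1 was at 0.786, 0.918 and 0.846 FPKM in the libraries labelled ttk-RNAi and at 5.42, 4.65 and 3.6 in dpn OE. BubR1 stood at 0.108, 0.192 and 0.152 FPKM in Nicd OE and at 0.323, 0.648 and 1.12 in seq&Nicd OE, against 1.81, 0.499 and 0.5 in Ctrl. Its level was under 1 FPKM in all ttk-RNAi and Nicd OE libraries. Ndc80 was at 0.782, 0.912 and 0.861 FPKM in the libraries labelled ttk-RNAi and at 4.72, 5.2 and 3.66 in dpn OE. Ndc80 stood at 0.0814, 0.0169 and 0.16 FPKM in Nicd OE and at 0.291, 0.258 and 0.801 in seq&Nicd OE, against 2.13, 0.525 and 0.434 in Ctrl. In both genes the 3 dpn OE libraries lay above all other 12. The mean of BubR1 was 4.87-fold and that of Ndc80 4.39-fold that of Ctrl in dpn OE, or 9.13-fold and 9.45-fold without Ctrl replicate 1, with no test for the reason given.

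In Nicd OE BubR1 was 6.2-fold lower (excess −0.29 ± 0.22, adjusted p = 0.025), or 3.31-fold without Ctrl replicate 1, a call lost without Nicd OE replicate 1, Nicd OE replicate 2 or Ctrl replicate 1 (adjusted p = 0.057 to 0.12). Ndc80 was 12-fold lower (excess −0.41 ± 0.24, adjusted p = 0.014) there, at 5.56-fold without Ctrl replicate 1 and 21-fold without Nicd OE replicate 3, a call lost without Nicd OE replicate 2 or Ctrl replicate 1 (adjusted p = 0.053). The 3 Nicd OE libraries together held about 18 reads of Ndc80. Bub3 was at 13.4, 13.2 and 12.4 FPKM in the libraries labelled ttk-RNAi and at 16.1, 19 and 17.8 in dpn OE. Bub3 stood at 2.66, 3.24 and 4.09 FPKM in Nicd OE and at 4.05, 4.61 and 11.4 in seq&Nicd OE, against 8.44, 4.03 and 6.38 in Ctrl. Bub3, the partner of BubR1 and Bub1 in the checkpoint, shares 15.9% of its exon length with ppk19, and was 2.07-fold higher (excess 0.75 ± 0.31, adjusted p = 0.016) in ttk-RNAi and 2.81-fold higher (excess 0.90 ± 0.31, adjusted p = 0.0013) in dpn OE, with no overlap in either, and the first of these calls was lost without Ctrl replicate 2 (adjusted p = 0.06). Of the 6 genes, 2 rose in ttk-RNAi (33.3%, all genes 30.7%) and 2 fell in Nicd OE (33.3%, all genes 34.2%), shares near those of all genes. In the fit of all libraries none was called in either comparison of seq&Nicd OE, where the unadjusted limma counts were 0 against Ctrl and 2 higher against Nicd OE. In the paired fit BubR1, Bub3, Ndc80 and Nuf2 were higher in seq&Nicd OE than in Nicd OE (limma adjusted p = 0.028 to 0.044). The pairing was read from these same libraries, so these gained calls are a description. The block in the fit of all 15 libraries added no call. Bub1 was called in no comparison.

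Spindle motors and chromosome structure were represented by 5 tested genes, 3 of them followed by library. The chromosomal passenger genes borr (Borealin) and Incenp encode partners of aurB at centromeres and the midzone. borr was at 17.2, 17.5 and 14.9 FPKM in the libraries labelled ttk-RNAi and at 18.5, 16.5 and 8.0 in dpn OE. borr stood at 0.497, 0.8 and 1.58 FPKM in Nicd OE and at 4.47, 5.4 and 18.2 in seq&Nicd OE, against 9.4, 3.13 and 2.9 in Ctrl. It was 3.21-fold higher (excess 1.43 ± 0.46, adjusted p = 0.0081) in ttk-RNAi and 2.79-fold higher (excess 0.90 ± 0.46, adjusted p = 0.017) in dpn OE, where replicate 3 lay inside the range of Ctrl and the call was lost without dpn OE replicate 1, dpn OE replicate 2, Ctrl replicate 2 or Ctrl replicate 3 (adjusted p = 0.059 to 0.072). In Nicd OE it was 5.35-fold lower (excess −1.13 ± 0.46, adjusted p = 0.016), a call lost without Nicd OE replicate 1, Nicd OE replicate 2 or Ctrl replicate 1 (adjusted p = 0.052 to 0.083), and in seq&Nicd OE 9.75-fold higher (excess 1.98 ± 0.46, adjusted p = 0.0024) than in Nicd OE. Without Ctrl replicate 1 the ratios to Ctrl were 5.49-fold in ttk-RNAi, 4.77-fold in dpn OE and 3.14-fold (lower) in Nicd OE. Without seq&Nicd OE replicate 3 the ratio to Nicd OE was 5.14-fold.

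Incenp was at 3.39, 3.78 and 3.31 FPKM in the libraries labelled ttk-RNAi and at 5.21, 5.21 and 4.28 in dpn OE. Incenp stood at 0.126, 0.0784 and 0.207 FPKM in Nicd OE and at 0.577, 0.8 and 2.72 in seq&Nicd OE, against 4.03, 3.83 and 1.73 in Ctrl. The Nicd OE libraries were all under 1 FPKM for Incenp, with about 36 reads over the group, and the gene was 23.3-fold lower (excess −1.44 ± 0.28, adjusted p = 0.00019) than in Ctrl. Incenp was 2.34-fold lower (excess −0.72 ± 0.28, adjusted p = 0.024) in seq&Nicd OE than in Ctrl, with overlap, at 4.64-fold without seq&Nicd OE replicate 3. The Incenp call there was lost without seq&Nicd OE replicate 1, seq&Nicd OE replicate 2, Ctrl replicate 1 or Ctrl replicate 2 (adjusted p = 0.063 to 0.13). barr was at 2.49, 2.82 and 2.43 FPKM in the libraries labelled ttk-RNAi and at 6.49, 5.95 and 4.67 in dpn OE. barr stood at 0.567, 0.816 and 1.04 FPKM in Nicd OE and at 1.05, 1.24 and 2.29 in seq&Nicd OE, against 3.95, 3.71 and 2.7 in Ctrl. The condensin gene barr, needed to compact chromosomes, was 1.65-fold higher (excess 0.09 ± 0.20, adjusted p = 0.022) in dpn OE, 4.28-fold lower (excess −0.90 ± 0.20, adjusted p = 0.00022) in Nicd OE and 2.26-fold lower (excess −0.67 ± 0.20, adjusted p = 0.005) in seq&Nicd OE, with no overlap with Ctrl in any. Its rise in dpn OE was lost without dpn OE replicate 1, dpn OE replicate 2 or Ctrl replicate 3 (adjusted p = 0.066 to 0.092) and with the libraries scaled to a common median (adjusted p = 0.97).

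The minus-end motor gene ncd, 15.3% of whose exon length is shared with the genes ca and CG7789, was 3.48-fold higher (excess 0.73 ± 0.23, adjusted p = 0.0033) in ttk-RNAi and 4.45-fold higher (excess 0.71 ± 0.23, adjusted p = 0.00049) in dpn OE. SMC2, a core condensin subunit gene, was 2.38-fold higher (excess 0.64 ± 0.35, adjusted p = 0.012) in dpn OE and 3.71-fold lower (excess −0.62 ± 0.35, adjusted p = 0.031) in Nicd OE, at 3.95-fold and 2.23-fold without Ctrl replicate 1. The SMC2 call in dpn OE was lost without Ctrl replicate 2 (adjusted p = 0.058) and that in Nicd OE without Nicd OE replicate 1, Nicd OE replicate 2 or Ctrl replicate 1 (adjusted p = 0.073 to 0.16). The kinesin gene Klp61F averaged 0.736 ± 0.0703 FPKM in ttk-RNAi and 0.803 ± 0.0947 in dpn OE (SD, n = 3 each). Its mean was 0.14 ± 0.0574 for Nicd OE and 0.306 ± 0.12 for seq&Nicd OE, against 0.244 ± 0.085 in Ctrl, and was not tested.

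Cytokinesis was represented by 5 genes, of which 3 rose in ttk-RNAi (all genes 30.7%), 4 rose in dpn OE (all genes 44.6%) and none was called in Nicd OE, where 1 was lower at an unadjusted p under 0.05 in the limma fit. The kinesin gene pav and the RacGAP gene tum encode the centralspindlin complex, and pbl is required for cytokinesis. pav was at 2.74, 2.84 and 2.59 FPKM in the libraries labelled ttk-RNAi and at 7.16, 7.52 and 5.54 in dpn OE. pav stood at 0.335, 0.636 and 0.76 FPKM in Nicd OE and at 1.34, 1.28 and 3.82 in seq&Nicd OE, against 1.77, 0.422 and 0.49 in Ctrl. It was 3.04-fold higher (excess 0.81 ± 0.29, adjusted p = 0.0077) in ttk-RNAi and 7.53-fold higher (excess 1.59 ± 0.29, adjusted p = 3.7e-05) in dpn OE, or 5.97-fold and 14.8-fold without Ctrl replicate 1. pbl was at 3.73, 5.19 and 4.45 FPKM in the libraries labelled ttk-RNAi and at 8.85, 8.65 and 8.93 in dpn OE. pbl stood at 0.496, 0.641 and 0.909 FPKM in Nicd OE and at 1.05, 0.491 and 2.87 in seq&Nicd OE, against 2.12, 0.537 and 1.11 in Ctrl. The gene was 3.54-fold higher (excess 1.09 ± 0.30, adjusted p = 0.0021) in ttk-RNAi and 7.0-fold higher (excess 1.68 ± 0.30, adjusted p = 3.8e-05) in dpn OE, or 5.4-fold and 10.7-fold without Ctrl replicate 1. For both genes the dpn OE libraries lay above the ttk-RNAi libraries, and both of those above all Ctrl libraries.

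tum was at 17.5, 14.4 and 16 FPKM in the libraries labelled ttk-RNAi and at 7.18, 7.32 and 4.86 in dpn OE. tum stood at 1.13, 1.78 and 2.69 FPKM in Nicd OE and at 3.72, 3.03 and 13.8 in seq&Nicd OE, against 8.1, 1.81 and 3.29 in Ctrl. In contrast to pav and pbl, tum was highest in ttk-RNAi, where it was 3.63-fold higher (excess 1.58 ± 0.45, adjusted p = 0.0039), or 6.26-fold without Ctrl replicate 1. It was not called in dpn OE (adjusted p = 0.25), whose libraries lay within the range of Ctrl. The citron kinase gene sti was 3.06-fold higher (excess 0.29 ± 0.24, adjusted p = 0.01) in dpn OE, a call lost without Ctrl replicate 2 (adjusted p = 0.051), and the anillin gene scra 3.62-fold higher (excess 1.15 ± 0.38, adjusted p = 0.0017), at 5.1-fold and 6.51-fold without Ctrl replicate 1. The pav gene was 3.72-fold higher (excess 0.70 ± 0.29, adjusted p = 0.033) in seq&Nicd OE than in Nicd OE, at 2.27-fold without seq&Nicd OE replicate 3, and that call was lost without Nicd OE replicate 1, Nicd OE replicate 2 or seq&Nicd OE replicate 3 (adjusted p = 0.076 to 0.18).

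**Figure D4:**
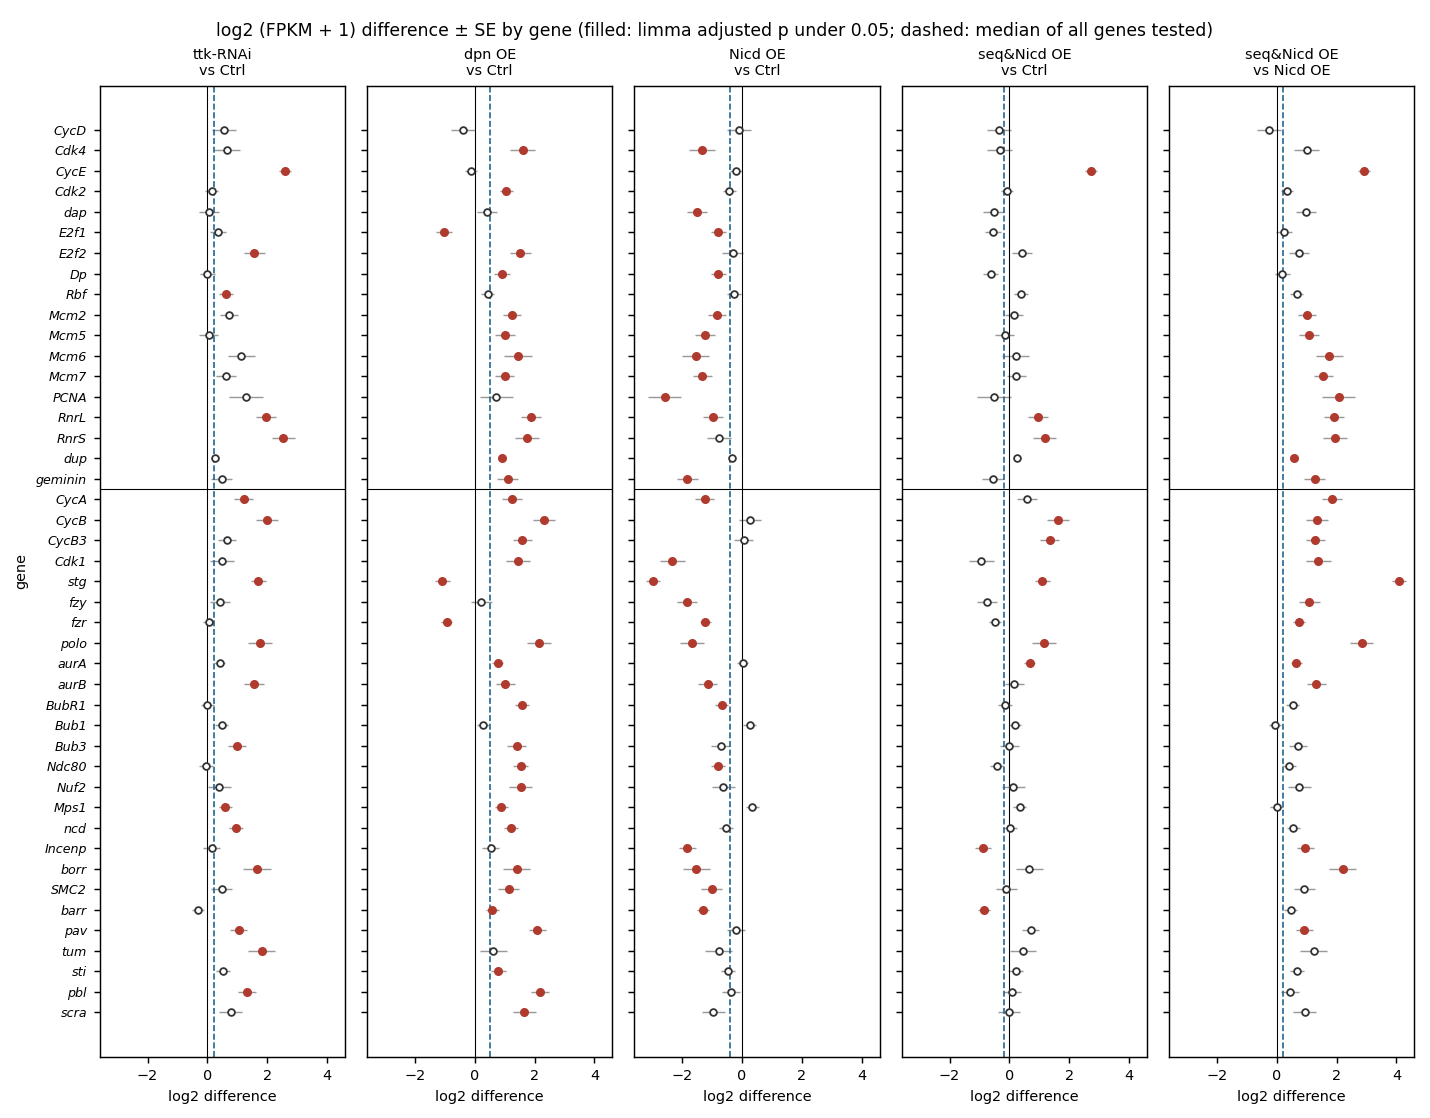
Log2 difference, on the log2(FPKM + 1) scale, of each of the 44 tested members (rows, by role) in the 5 comparisons (columns), with its standard error. Filled points have an adjusted p under 0.05, the dashed line is the median of all genes tested, and a horizontal line parts the 2 gene sets. Points lie mostly right of the dashed line in ttk-RNAi, dpn OE and seq&Nicd OE against Nicd OE, and left of it in Nicd OE against Ctrl.

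The manipulated groups were also compared with each other in the same limma fit. Between dpn OE and ttk-RNAi, 11 members were higher in dpn OE and 5 lower, where 38.8% of all genes were higher and 23% lower. Under 4 other scalings 8 to 11 were higher and 7 to 9 lower, and in a fit of these 2 groups alone 21 were higher and 9 lower. The 5 lower members were CycE, E2f1, stg, fzr and tum, at ratios of 0.0555, 0.379, 0.135, 0.491 and 0.405 of the means. The 11 higher members were Cdk2, Dp, Mcm5, CycB3, Nuf2, barr, pav, pbl and, tested only through dpn OE, dup, BubR1 and Ndc80. Between Nicd OE and ttk-RNAi 39 members were lower in Nicd OE (all genes 54.2%), and between Nicd OE and dpn OE 39 were lower in Nicd OE (all genes 60.1%). None was higher in either, where 7.38% and 7% of all genes were, and none at an unadjusted p under 0.05 in the limma fit (counts of 0 and 0). The 39 lower than in dpn OE include dup, aurA, BubR1 and Ndc80. These passed the filter only through the dpn OE libraries, so their differences from dpn OE are a description with no test. Under 3 of the other scalings 1 to 2 members were higher in Nicd OE than in ttk-RNAi, and under all 4 of them 1 to 4 were higher than in dpn OE.

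Between seq&Nicd OE and dpn OE, 29 members were lower in seq&Nicd OE (all genes 55.2%) and 3 were higher (all genes 15.7%). The 29 include dup, BubR1 and Ndc80, which were tested only through dpn OE, so their differences are a description. Under 4 other scalings the 29 became 14 to 15 and the 3 became 4 to 7. The 3 higher members were CycE, stg and fzr, at ratios of 19.9, 4.85 and 1.4. Between seq&Nicd OE and ttk-RNAi, 16 members were lower in seq&Nicd OE, where 37.4% of all genes were lower, and none was higher, where 7.58% of all genes were (unadjusted limma count 1). Under the 4 other scalings 2 to 3 members were higher. Those 16 became 31 without seq&Nicd OE replicate 3, 4 without replicate 2 and 6 without replicate 1 of that group, 10 without ttk-RNAi replicate 1 and 3 to 6 under the other scalings. CycE, at a ratio of 1.11, and stg, at 0.655, were not among the 16. Members named here have calls against Ctrl from the same libraries, so their ratios are a description, and all these comparisons share libraries.

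The calls of the 44 tested members took 20 different patterns over the 5 comparisons, the most shared of which held 6 members. A set of 6 members, Mcm2, Mcm5, Mcm6, Mcm7, geminin and Cdk1, were higher in dpn OE and lower in Nicd OE than in Ctrl and higher in seq&Nicd OE than in Nicd OE, with no call in ttk-RNAi. RnrL and polo were called in all 5 comparisons, lower in Nicd OE and higher in the other 4. E2f2, Bub3, Mps1, ncd and pbl were higher in ttk-RNAi and dpn OE with no other call in the fit of all libraries. Cdk4, Dp, BubR1, Ndc80 and SMC2 were higher in dpn OE and lower in Nicd OE with no other call in that fit. Of these, BubR1 and Ndc80 were tested only through dpn OE. In the paired fit E2f2, Bub3, Cdk4, BubR1, Ndc80 and SMC2 were also higher in seq&Nicd OE than in Nicd OE. Those added calls are a description, since the pairing was read from the same libraries. CycE was higher in ttk-RNAi and seq&Nicd OE, and stg changed in every comparison. A count of calls in a comparison does not test whether the comparisons differ for a member.

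Some calls held under each of 4 other scalings and with each of the 15 libraries left out in turn. In ttk-RNAi these were 14 rises, of CycE, E2f2, RnrL, RnrS, CycA, CycB, stg, polo, aurB, ncd, borr, pav, tum and pbl. In dpn OE they were the falls of E2f1, stg and fzr and 20 rises. The 20 were Cdk4, Cdk2, E2f2, Mcm2, RnrL, RnrS, dup, CycA, CycB, CycB3, polo, BubR1, Bub3, Ndc80, Nuf2, Mps1, ncd, pav, pbl and scra. The rises of Dp, Mcm5, Mcm6, Mcm7, geminin, Cdk1, aurB, borr, SMC2, barr and sti in dpn OE did not hold under all 4 scalings. The 20 include dup, BubR1 and Ndc80, which were tested only because they were high in dpn OE. In Nicd OE they were 11 falls, of Mcm5, Mcm7, PCNA, geminin, Cdk1, stg, fzy, fzr, polo, Incenp and barr. The falls of dap, CycA and aurB there held with each library left out but not under all 4 scalings. In seq&Nicd OE against Ctrl they were the rises of CycE, CycB, CycB3 and stg, and against Nicd OE 11 rises, of CycE, Mcm7, RnrL, RnrS, dup, CycA, CycB3, stg, polo, aurB and borr.

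Leaving out 1 library moved a count of calls by over 1.5 times in 3 of the 5 comparisons. In ttk-RNAi the 17 rises became at most 25, without Ctrl replicate 1, and in dpn OE the 32 rises became at fewest 25, without Ctrl replicate 3. In Nicd OE the 24 falls became 15 without Nicd OE replicate 1 and 14 without either Nicd OE replicate 2 or Ctrl replicate 1. In seq&Nicd OE against Ctrl the 8 rises became 4 without seq&Nicd OE replicate 3 and 5 without Ctrl replicate 3. The 2 falls there became 7 without seq&Nicd OE replicate 3 or Ctrl replicate 2 and 1 without seq&Nicd OE replicate 1 or 2. In seq&Nicd OE against Nicd OE the 23 rises became 12 without seq&Nicd OE replicate 3, 13 without Nicd OE replicate 1 and 14 without Nicd OE replicate 2.

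Single libraries were the highest or lowest of their group for many members. Replicate 3 of seq&Nicd OE had the highest value of its group for 42 of the 45 members, with a median ratio of 2.55 to the mean of the other 2 libraries, where the median over all genes was 1.33. That library also had the lowest summed enteroendocrine markers of its group (4855 FPKM) and the highest summed germline and tracheal markers (7.57 and 4.48 FPKM). In Nicd OE, replicate 3 was highest for 38 members, with a median ratio of 1.67 against 1.45 over all genes. Ctrl replicate 1 was highest for 35 members, with a median ratio of 1.93 against 1.25 over all genes. It had the lowest enteroendocrine sum (12706 FPKM) and the highest Dl (161 FPKM) of the Ctrl libraries. In dpn OE, replicate 2 was highest for 23 members and replicate 3 lowest for 39 members (median ratio 0.769, all genes 0.886). The median coefficient of variation of the members was 7.52% in ttk-RNAi, 16.7% in dpn OE, 38.4% in Nicd OE, 59.2% in seq&Nicd OE and 55.5% in Ctrl. The part of cell makeup or of the libraries in these differences was not tested.

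A wider set of 139 cell cycle genes outside the 48, of which 118 were tested, was counted in the same fit. In ttk-RNAi 51 of the 118 rose (43.2%, all genes 30.7%) and 6 fell, and in dpn OE 77 rose (65.3%, all genes 44.6%) and 8 fell. In Nicd OE 27 fell (22.9%), fewer than the 34.2% of all genes, and 2 rose. In seq&Nicd OE 9 rose and 12 fell against Ctrl (7.63% and 10.2%, all genes 13.3% and 21.2%), and 21 were higher than in Nicd OE (17.8%, near the 15.8% of all genes) and 1 lower. Over the 108 that passed the filter without the dpn OE libraries, 67 rose in dpn OE (62%, all genes 42.7%). The single lists that follow were not recounted in this way. Their shares in dpn OE may hold genes tested only through dpn OE and are a description. Of 27 other replication genes, 18 rose in ttk-RNAi (66.7%, all genes 30.7%), 24 rose in dpn OE (88.9%, all genes 44.6%) and 7 fell in Nicd OE (25.9%, all genes 34.2%). Of 24 spindle and centrosome genes, 11 rose in ttk-RNAi (45.8%), 11 rose in dpn OE (45.8%, near the share of all genes) and 4 fell in Nicd OE (16.7%, under that share). Of 13 condensin, cohesin and separase genes, 3 rose and 2 fell in ttk-RNAi (23.1% and 15.4%), 9 rose and 2 fell in dpn OE (69.2% and 15.4%), and 7 fell in Nicd OE (53.8%). Of 12 centromere and kinetochore genes, 5 rose in ttk-RNAi (41.7%), 9 rose in dpn OE (75%), and 1 rose and 3 fell in Nicd OE (8.33% and 25%). Of 8 genes of the anaphase-promoting complex, 5 rose in ttk-RNAi (62.5%), 5 rose and 1 fell in dpn OE (62.5% and 12.5%), and none was called in Nicd OE, where 1 was higher and 2 lower at an unadjusted p under 0.05 in the limma fit. Of 15 further mitotic kinase, phosphatase and checkpoint genes, 4 rose and 2 fell in ttk-RNAi (26.7% and 13.3%), 11 rose and 2 fell in dpn OE (73.3% and 13.3%), and 3 fell in Nicd OE (20%). Of 9 further genes of the cytokinetic ring, 2 rose and 1 fell in ttk-RNAi (22.2% and 11.1%), 2 rose and 2 fell in dpn OE (22.2% each), and 3 fell in Nicd OE (33.3%). Of 6 genes of the Myb-MuvB complex, 3 rose in ttk-RNAi (50%), 3 rose in dpn OE (50%) and 1 rose in Nicd OE (16.7%).

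Among these genes, Cks30A, which encodes a small Cdk-binding subunit, averaged 30.8 ± 1.52 FPKM in ttk-RNAi, 23.9 ± 3.9 in dpn OE, 34.2 ± 18.9 in seq&Nicd OE and 4.44 ± 4.4 in Ctrl (SD, n = 3 each). Its ratio to Ctrl was 6.94 (adjusted p = 0.00013) in ttk-RNAi, 5.39 (adjusted p = 0.0004) in dpn OE and 7.7 (adjusted p = 0.0002) in seq&Nicd OE. Without Ctrl replicate 1, these ratios of Cks30A were 16, 12.4 and 17.8 in the same order. The centromeric histone gene cid averaged 10.7 ± 1.38 FPKM in ttk-RNAi and 1.19 ± 0.647 in Ctrl (9.05-fold higher, adjusted p = 8.7e-05). The kinetochore gene Kmn1 moved against the members in Nicd OE, at 12.6 ± 6.33 FPKM there and 1.2 ± 0.341 in Ctrl (10.5-fold higher, adjusted p = 1.5e-05), and it was 6.86-fold lower in seq&Nicd OE than in Nicd OE (adjusted p = 3.1e-05). The centrosome gene cnn averaged 1.3 ± 0.35 FPKM in Nicd OE and 6.71 ± 1.12 in Ctrl (5.15-fold lower, adjusted p = 6.3e-05). Of 4 growth regulators, 3 rose in dpn OE (75%, all genes 44.6%) and 1, Myc, fell there (25%, all genes 12.5%), a list too short to set apart from all genes. Myc was at 103 ± 10.6 FPKM in dpn OE and 404 ± 235 in Ctrl (3.91-fold lower, adjusted p = 0.0032). The meiotic Cdc25 gene twe fell in dpn OE as stg did, at 6.58 ± 1.4 FPKM in dpn OE and 23.2 ± 10.6 in Ctrl (3.53-fold lower, adjusted p = 0.00036).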

How the data were processed

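RNA from sorted, fluorescently labelled midgut progenitor cells was amplified and sequenced on an Illumina instrument in 15 libraries, per the labels' protocols. The authors deposited FPKM values for 17558 genes, and the submitters' processing notes name STAR 2.6.1a as a tool, DESeq2 as another and BDGP6 as the build. How reads were counted, whether strand was used and which gene models served are not given in the sources used here. Identifiers were matched to symbols for 17252 genes, and 306 had no match. At low values, 97.8 to 98.3% of entries per library were whole multiples of the value of 1 read, within 0.02 reads. Since that value depends on gene length, read numbers are given only for depth, and no count test was run.

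Libraries were grouped by their titles. The FPKM values as deposited were tested with limma 3.58.1 in R 4.3.3 on log2(FPKM + 1), over the 8209 genes at 1 FPKM or more in at least 3 of 15 libraries. The fit had 5 group means, a variance trend and two-sided moderated tests, with Benjamini-Hochberg adjustment over all genes tested in each comparison and a threshold of 0.05. The script was checked on simulated data. Summaries and figures used Python 3.11.15. Gene positions and shared exon lengths come from the Ensembl annotation of BDGP6.

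Values by library are given in each role list for up to 3 members with the most calls, and for up to 4 called members of each gene set with the largest log2 difference per comparison and direction. Other members are given by means or counts. The members, the lists and the marker genes were chosen with earlier results of these data known. Alternatives were another pseudocount, 2 other filters, 4 scalings, fits of 2 groups, a replicate block and each library left out.

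Same-numbered libraries of seq&Nicd OE and Nicd OE deviated together from their group means (correlations over genes of 0.20 to 0.43 in the 3 pairs). These groups were therefore treated as paired by number, from the data and not from the labels. Nicd OE replicate 1 correlated at 0.26 with seq&Nicd OE replicate 2, above its 0.20 with replicate 1, so replicates 1 and 2 were not clearly matched by number. Replicate 3 of either group was at −0.36 to −0.21 with replicates 1 and 2 of the other. No other pair of groups had all 3 same-number correlations over 0.1.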

Additional observations from a re-analysis of the deposited data

How the results depend on the processing

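No called member changed direction under any setting in which it was tested. Over all members, comparisons and settings, 4831 results kept their side of the threshold, 222 lost the call and 151 gained one. With a filter on a mean of at least 5 FPKM, which leaves 23 members, rises numbered 11 in ttk-RNAi, 14 in dpn OE, 5 in seq&Nicd OE against Ctrl and 13 against Nicd OE, with 15 falls in Nicd OE and 0 for seq&Nicd OE against Ctrl. With no filter, seq&Nicd OE had 5 rises against Ctrl. In fits of 2 groups only, it had 4 rises and 0 falls. Median scaling gave 1 fall in ttk-RNAi, 21 rises in dpn OE and 2 rises in Nicd OE. Median-of-ratios scaling gave 1 fall in ttk-RNAi, 2 rises in Nicd OE and 13 rises for seq&Nicd OE against Ctrl. Equal FPKM sums gave 1 rise and 11 falls in Nicd OE, with 13 rises and 0 falls for seq&Nicd OE against Ctrl. Quantile normalization gave 1 fall in ttk-RNAi and 2 rises in Nicd OE. For these scalings the cause was not tested.

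With each library left out in turn, rises numbered 15 to 25 (25 without Ctrl replicate 1) for ttk-RNAi, 25 to 33 for dpn OE, 0 to 1 for Nicd OE (1 without Ctrl replicate 1), 4 to 11 for seq&Nicd OE against Ctrl (11 without Ctrl replicate 1) and 12 to 30 against Nicd OE (30 without Ctrl replicate 1 or 2). Falls ranged from 14 to 30 for Nicd OE (30 without seq&Nicd OE replicate 3) and 1 to 7 for seq&Nicd OE against Ctrl. These fits hold fewer libraries.

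With the replicate block in the fit of all 15 libraries, 16 members rose in ttk-RNAi, 32 rose and 3 fell in dpn OE, 24 fell in Nicd OE, with 7 rises and 2 falls for seq&Nicd OE against Ctrl, and 23 were higher than in Nicd OE. In a fit of only the 2 groups treated as paired, chosen after seeing the data, 36 were higher. Over the 40 members that pass the filter without the dpn OE libraries, a count also chosen after seeing the data, 28 rose and 3 fell in dpn OE. The block in the fit of all libraries ended 2 calls and made none.

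A scan of promoters for E2F and DREF motifs was planned and not run, since no promoter sequence was used here. Depth limits the low genes: over the 3 Nicd OE libraries Ndc80 had about 18 reads, ncd 27, dup 29, aurA 34 and Incenp 36, so their ratios to Ctrl are imprecise.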
